A study of Mus musculus with 7 samples.

Results

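The pore-forming alpha subunits of voltage-gated calcium channels are encoded by a small gene family, and the open chromatin at 9 of its genes was examined in sorted mouse islet cells. The members were Cacna1a, Cacna1b, Cacna1c, Cacna1d, Cacna1e, Cacna1g, Cacna1h, Cacna1i, and Cacna1s, chosen by gene name from 21938 protein-coding genes, and their windows were the gene bodies with 20 kb on each side. These windows hold 2.63 Mb, or 0.0965% of the genome. Voltage-gated calcium channels open when the membrane depolarizes and let calcium into the cell. In islet cells the calcium that enters triggers the release of hormone granules, and L-type, P/Q-type, N-type, R-type, and T-type channels differ in the voltage at which they open and in how fast they close. The alpha subunit forms the pore and sets the channel type, whereas beta, alpha2delta, and gamma subunits accompany it and small GTPases and calmodulin act on it.

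The study compared chromatin accessibility between alpha, beta, and delta cells, which release glucagon, insulin, and somatostatin, by ATAC-Seq, in which the Tn5 transposase cuts and tags open DNA. Cells came from healthy triple transgenic mice that carried mIns1-H2b-mCherry and Rosa-LSL-YFP with either Gcg-Cre or Sst-Cre, and the animals were pooled by sex. The nuclear H2b-mCherry marked beta cells under the Ins1 promoter and YFP marked alpha cells under Gcg-Cre or delta cells under Sst-Cre, so all groups carried both reporters and differed in the gate, and cells positive for both colours were left out. Beta cells were sorted from these same crosses, and the Cre driver behind each beta library is not given in the sources used here. The peak calls of 7 libraries were used, with 2 alpha, 3 beta, and 2 delta samples that the labels call biological replicates, and ages were not given in the sources used here. In cells sorted in bulk, a site open in fewer cells and a site less open in each cell cannot be told apart.

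The lists held between 75860 and 158066 distinct peaks, except that of beta 1, which held 518503. Of these, 4.996% in beta 1 and between 29.8% and 54.9% in the other libraries reached a -log10 q of 2, where q is the p-value of a peak adjusted over its own list. Peaks that reach it are called strong below and all others weak, and the strength of a peak is given as its -log10 q. Inside all 3 beta lists, the peak names carry alpha or delta in place of beta. Libraries were grouped by label, so every beta value depends on the labels being right. The names also carry a sequencing lane, lane 6 for alpha 1, alpha 2, and beta 1 and lane 7 for beta 2, beta 3, delta 1, and delta 2, so lane and cell type cannot be told apart between alpha and delta cells. Of the hormone genes, Gcg had a peak within 1 kb of its 5' end in both alpha libraries and delta 2 and in no beta library, Sst had a weak one in both delta libraries and a strong one in beta 1, and Ins2 had a weak one in beta 3 alone. Ins1, whose promoter is also part of the reporter, had a peak in all 7 libraries, which was strong in beta 1, beta 3, and delta 1. The strong Sst peak in beta 1 and the Ins1 peaks outside beta cells do not follow the labels. The acinar markers Cpa1 and Cela1, the duct marker Krt19, and the immune marker Ptprc had none in any library, whereas the acinar marker Ptf1a had a weak peak in both alpha libraries and the endothelial marker Pecam1 in alpha 2. Their part in the values below was not tested.

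Sequences of 7 regions are shown because they carry the main patterns described below, which are a start that was open in every library, the start of 12 of the 27 Cacna1c transcripts, regions called in 1 cell type, and intronic regions that were called in all libraries. They were read from the plus strand of GRCm38 around the strongest summit, within the limits of the region and outside untranslated regions. The stretch labelled as the start of 12 Cacna1c transcripts lies upstream of their annotated starts (chr6:119107975-119108573, minus strand). Capitals mark matches on either strand to the GC box GGGCGG, the CRE TGACGTCA, the AP-1 motif TGANTCA, the Fox motif TGTTTAC, the homeobox motif TAATTA, the Maf site TGCTGAC, the NeuroD E-box CAGATGG, the Rfx site GTTGCCA, or the CTCF core.
Cacna1b, upstream of the 5' end, chr2:24763153-24763350: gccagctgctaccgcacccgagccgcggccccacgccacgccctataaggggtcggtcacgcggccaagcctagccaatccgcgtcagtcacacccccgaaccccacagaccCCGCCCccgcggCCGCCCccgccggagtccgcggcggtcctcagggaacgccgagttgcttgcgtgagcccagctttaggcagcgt
Cacna1c, start of 12 transcripts, chr6:119108990-119109289: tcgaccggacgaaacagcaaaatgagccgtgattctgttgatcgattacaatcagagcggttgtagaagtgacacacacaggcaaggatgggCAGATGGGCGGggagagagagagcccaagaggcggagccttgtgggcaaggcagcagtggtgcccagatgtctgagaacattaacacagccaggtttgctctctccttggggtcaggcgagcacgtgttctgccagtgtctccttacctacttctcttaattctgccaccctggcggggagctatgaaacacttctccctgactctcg
Cacna1h, intronic, called in delta cells, chr17:25405188-25405487: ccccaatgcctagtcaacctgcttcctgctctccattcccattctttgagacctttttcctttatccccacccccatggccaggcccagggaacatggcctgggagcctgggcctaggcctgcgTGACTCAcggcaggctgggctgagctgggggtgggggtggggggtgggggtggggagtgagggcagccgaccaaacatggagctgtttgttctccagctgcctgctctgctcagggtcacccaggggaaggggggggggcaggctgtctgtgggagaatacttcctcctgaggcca
Cacna1h, intronic, called in delta cells, chr17:25418933-25419232: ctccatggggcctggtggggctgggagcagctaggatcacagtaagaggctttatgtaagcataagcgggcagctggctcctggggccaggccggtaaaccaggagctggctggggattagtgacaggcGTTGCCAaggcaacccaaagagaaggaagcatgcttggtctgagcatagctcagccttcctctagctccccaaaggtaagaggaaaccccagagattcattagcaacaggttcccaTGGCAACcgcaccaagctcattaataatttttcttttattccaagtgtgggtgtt
Cacna1c, intronic, called in alpha cells, chr6:118731976-118732275: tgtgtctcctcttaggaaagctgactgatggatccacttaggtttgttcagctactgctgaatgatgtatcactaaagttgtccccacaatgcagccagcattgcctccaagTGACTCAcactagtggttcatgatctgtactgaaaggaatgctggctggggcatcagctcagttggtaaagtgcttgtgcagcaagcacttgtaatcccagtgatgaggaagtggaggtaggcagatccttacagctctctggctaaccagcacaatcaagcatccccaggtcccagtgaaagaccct
Cacna1e, intronic, called in all libraries, chr1:154500512-154500811: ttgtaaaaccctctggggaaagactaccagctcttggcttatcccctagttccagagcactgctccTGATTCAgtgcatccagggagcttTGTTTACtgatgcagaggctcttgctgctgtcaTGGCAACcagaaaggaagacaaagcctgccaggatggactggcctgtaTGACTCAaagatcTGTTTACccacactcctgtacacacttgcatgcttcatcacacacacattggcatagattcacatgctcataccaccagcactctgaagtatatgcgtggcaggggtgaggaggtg
Cacna1e, intronic, called in all libraries, chr1:154814546-154814769: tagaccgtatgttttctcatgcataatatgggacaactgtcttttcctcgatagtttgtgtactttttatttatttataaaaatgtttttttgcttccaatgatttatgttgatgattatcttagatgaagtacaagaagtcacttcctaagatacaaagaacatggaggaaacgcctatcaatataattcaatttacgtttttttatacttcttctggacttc

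The Cacna1b stretch held 2 GC boxes and 72.7% G and C, and the stretch upstream of the Cacna1c starts held 1 GC box and 1 NeuroD E-box that share bases. Among regions called in 1 cell type, the Cacna1h region nearer the 3' end of the gene held 1 AP-1 motif, the other Cacna1h region held 2 Rfx sites, and the Cacna1c region held 1 AP-1 motif. The first Cacna1e region held 2 AP-1 motifs, 2 Fox motifs, and 1 Rfx site, and the second held none of the 9 motifs and only 29.9% G and C. For scale, windows of 300 bases around the summits of 133675 regions across the genome held the GC box in 13.7%, the CRE in 0.756%, the AP-1 motif in 17.4%, the Fox motif in 6.70%, the homeobox motif in 8.19%, the Maf site in 6.55%, the NeuroD E-box in 8.40%, the Rfx site in 5.12%, and the CTCF core in 2.45%. Among the 159 regions of the channel loci, the same windows held the GC box in 14.5%, the AP-1 motif in 17%, the Rfx site in 8.18%, and the Fox motif in 2.52%. The CTCF core was in 0 of 159, which allows a share of up to 1.89%. These shares were not tested, and a match of letters is not a bound site.

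The first comparison asked whether the promoters of the channel genes were accessible in each cell type. At the annotated 5' end, peaks were mostly absent or weak, and at Cacna1a, Cacna1c, Cacna1d, and Cacna1e the start peaks that were seen in most libraries lay at starts inside the gene. A peak at the 5' end, taken as within 1 kb, was present in all 7 libraries for 2 of the 9 genes, Cacna1b and Cacna1h, against 41.5% of all protein-coding genes. It was present in no library for Cacna1a and Cacna1d, against 17.3% of all genes. By cell type, with a peak in at least 2 replicates, 5 of 9 genes were open in alpha cells, 4 in beta cells, and 3 in delta cells, where the genome-wide shares were 56.8%, 56.1%, and 54.1%. With every annotated transcript start taken into account, 8 of 9 genes had a peak in all 7 libraries, against 46.6% of all genes, but longer genes with more starts have more windows in which a peak can fall. With strong peaks alone, this count was 3 of 9, against 34.3%.

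**Figure D1:**
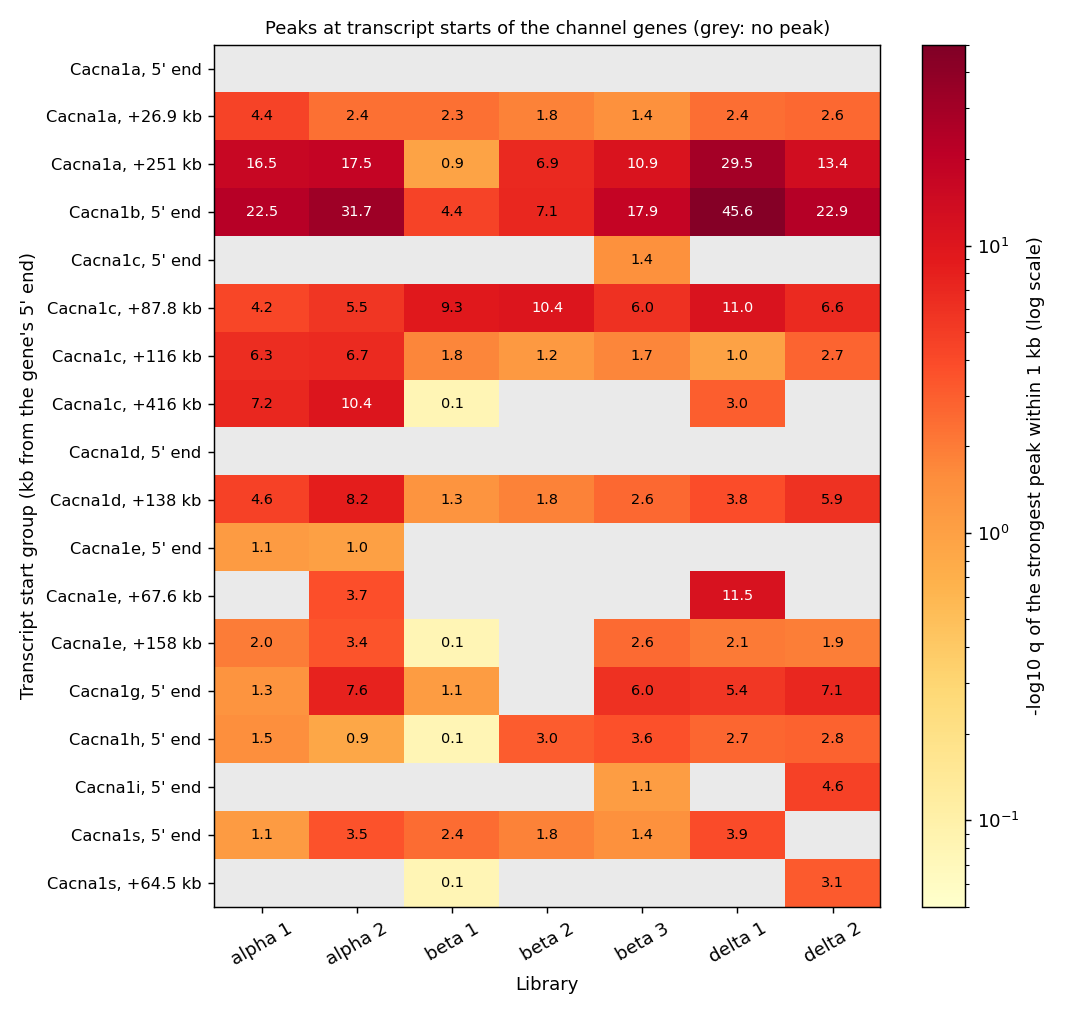
Strength (-log10 q, colour on a log scale) of the strongest peak within 1 kb of transcript starts (rows, with the distance from the 5' end of the gene in kb) in each of the 7 libraries (columns), for the 5' end of each gene and for other starts with a strong peak in some library. Cacna1b at its 5' end and Cacna1c at 87.8 kb exceed 4 in every library, whereas the 5' ends of Cacna1a and Cacna1d are grey throughout.

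Cacna1b encodes the pore of N-type channels, which couple calcium entry to exocytosis in neurons. Its start, shown above, was the strongest 5' end of the family. The -log10 q was 22.5 and 31.7 in alpha 1 and 2, 4.43, 7.15, and 17.9 in beta 1, 2, and 3, and 45.6 and 22.9 in delta 1 and 2. The 3 beta libraries were below all others, but the size of a -log10 q follows the depth of the library, so the order between cell types was not read as a difference in accessibility. The rank within a list, which depends less on depth, placed this peak between the 91.0th and the 98.5th percentile of its list in all libraries.

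The L-type genes Cacna1c and Cacna1d, whose channels carry much of the calcium current of beta cells, were closed at their annotated 5' ends except for a weak peak of 1.43 at Cacna1c in beta 3. Cacna1c was open 87.8 kb into the gene, at the start of 12 protein-coding transcripts, with a -log10 q of 4.20 and 5.49 in alpha cells, 9.26, 10.4, and 5.96 in beta cells, and 10.96 and 6.65 in delta cells. The libraries overlapped, and none fell below 4. A further start at 116 kb had 6.34 and 6.71 in alpha cells, 1.76, 1.18, and 1.72 in beta cells, and 0.951 and 2.75 in delta cells. A start of 4 transcripts at 416 kb had 7.16 and 10.4 in alpha cells and 2.98 in delta 1, with a weak call of 0.0774 in beta 1 and no peak in beta 2, beta 3, or delta 2. Both of these starts had a higher -log10 q in the alpha libraries than in any other. By percentile of the list, beta 1 was the highest at the start at 116 kb, at 94.7. The beta values at this start came from a separate region (chr6:119079569-119079949) to those of alpha and delta cells (chr6:119078802-119079497). In the latter region beta 1 had 0.998, and beta 2 and beta 3 had no peak. Cacna1d was open 138 kb into the gene, at the start of 5 transcripts, with 4.56 and 8.22 in alpha cells, 1.32, 1.82, and 2.62 in beta cells, and 3.82 and 5.93 in delta cells. The -log10 q of the 3 beta libraries was below all others here. By percentile of the list this order was lost, with beta 1 the highest at 94.2 and beta 3 at 75.5, above delta 2 at 72.1. The beta 1 and beta 2 values came from a separate region (chr14:30352062-30352869) to the others (chr14:30353313-30353983). In the latter region beta 1 had 0.502, at percentile 84.7, and beta 2 had no peak. The third L-type gene of the set, Cacna1s, is best known from skeletal muscle, where its channel senses voltage for contraction. Its 5' end had peaks of 1.13 and 3.50 in alpha cells, 2.44, 1.82, and 1.43 in beta cells, and 3.87 in delta 1, and no peak in delta 2. Those of both alpha libraries, beta 1, and beta 2 fell in a region 1.07 kb upstream (chr1:136051470-136051884). Their summits lay more than 1 kb away, and the region is also counted at the start of the neighbouring gene Ascl5. The open calls of Cacna1s in alpha and beta cells thus rest on a region shared with Ascl5.

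Cacna1a, which encodes the P/Q-type pore, was open 26.9 kb into the gene at the start of 3 protein-coding transcripts. The -log10 q there was 4.42 and 2.36 in alpha cells, 2.34, 1.82, and 1.43 in beta cells, and 2.39 and 2.64 in delta cells, so the libraries of beta cells lay below those of the other cells by a margin smaller than the spread of the alpha replicates. The delta 1 value came from a separate region (chr8:84415366-84415744). In the region of the other values (chr8:84414181-84414833) delta 1 had 1.15, below the beta libraries, so this order was lost. A stronger site lay 251 kb into the gene, at the start of a transcript near its 3' end that is not annotated as coding, with 16.5 and 17.5 in alpha cells, 0.939, 6.92, and 10.9 in beta cells, and 29.5 and 13.4 in delta cells. Cacna1e encodes the R-type pore. It had weak peaks at its 5' end in the alpha libraries alone, of 1.13 and 1.02, a pattern shared by 0.337% of all genes, and neither reached a -log10 q of 2. No transcript at this 5' end is annotated as coding. A coding start at 158 kb had 1.98 and 3.39 in alpha cells, 0.0774 and 2.57 in beta 1 and beta 3, no peak in beta 2, and 2.07 and 1.93 in delta cells, so no cell type stood apart. Another coding start, at 20.4 kb, had no peak in any library. A start at 67.6 kb that is not annotated as coding had 3.72 in alpha 2, 11.5 in delta 1, and no other peak.

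The T-type genes open at low voltage and serve pacemaking in many excitable cells. Cacna1g had a peak at its 5' end, where 12 transcripts begin, of 1.32 and 7.65 in alpha cells, 1.10 and 6.01 in beta 1 and beta 3, and 5.37 and 7.11 in delta cells, with none in beta 2. Cacna1h had weak to moderate peaks of 1.47 and 0.867 in alpha cells, 0.0774, 3.04, and 3.55 in beta cells, and 2.67 and 2.79 in delta cells. These Cacna1h peaks came from more than 1 region. Those of alpha 2 and delta 1 lay in a separate region (chr17:25434040-25434609) to most others (chr17:25433086-25434032). That of beta 3 lay further upstream, with its summit more than 1 kb away. In chr17:25433086-25434032, beta 3 had 2.13, delta 1 had 2.575, and alpha 2 had no peak. The call of Cacna1h in all 7 libraries thus rests on more than 1 region. The 4 libraries of lane 7 exceeded the 3 of lane 6 by either set of values, and the part of the lane was not tested. Cacna1i had a peak at its 5' end in 2 libraries, of 1.06 in beta 3 and 4.60 in delta 2, and none at its other start, where 4 transcripts begin.

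For genes with a 5' end peak in some libraries but not all, the pattern over libraries was compared with that of other genes. Cacna1c shared its pattern with 283 other genes, and the nearest by percentile of -log10 p were Crispld1 and Gsta3. Cacna1g shared it with 1240, nearest Dclre1a and Nhlrc2, and Cacna1s with 105, nearest Shisa7 and Irs4. Cacna1e shared its pattern with 73 other genes and Cacna1i with 20. The mean difference in percentile was 0 for the genes nearest to Cacna1c, where weak peaks of a list share 1 value, and at most 12.6 points for those nearest to Cacna1g and Cacna1s, over 1 library for Cacna1c and 6 for the others.

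The second comparison asked whether whole loci carried more peaks in 1 cell type. Peaks in the windows were counted in each library and divided by the number expected from the genome average of the same list, which gives a density of 1 at that average. Across the family, 171 and 174 peaks were found in alpha 1 and 2, 481, 63, and 115 in beta 1, 2, and 3, and 165 and 96 in delta 1 and 2, that is, densities of 1.35, 1.61, 0.962, 0.717, 1.15, 1.08, and 1.31. The densities of beta 1 and beta 2 were the lowest, and that of beta 3 lay between those of the delta libraries. Strong peaks numbered 61 and 61 in alpha cells, 22, 21, and 34 in beta cells, and 58 and 56 in delta cells, with densities of 1.22, 1.29, 0.880, 0.679, 0.926, 1.28, and 1.39. In this set, the 3 beta libraries were below all others. By the unique mapped reads that the study lists, beta 1 and beta 2 were the shallowest libraries. Beta 3 lay between delta 2 and the alpha libraries. The part of depth in this order was not tested. The median over the 20330 genes tested with strong peaks was between 1.6 and 1.83 in the same lists. The pooled density of the channel windows was below it in every library, but a pooled density and a median over genes are unlike measures. The median over the channel genes was also lower in every library. It ran from 0.794 in beta 2 to 1.61 in delta 2, where the median over the genes tested was 1.63, so the gap there was small.

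An exact permutation test without direction over all 210 assignments of the libraries, run on every protein-coding gene and adjusted by Benjamini-Hochberg, called 0 of 21938 genes. At an unadjusted p below 0.05, 970 genes (4.42%) were found, and the smallest p that the assignments allow is 0.00952. With that limit, an adjusted p below 0.05 would need a large share of all genes at a low p together. The 0 calls therefore say little about any single gene. Among the 9 channel genes, Cacna1a alone was below 0.05 before adjustment.

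**Figure D2:**
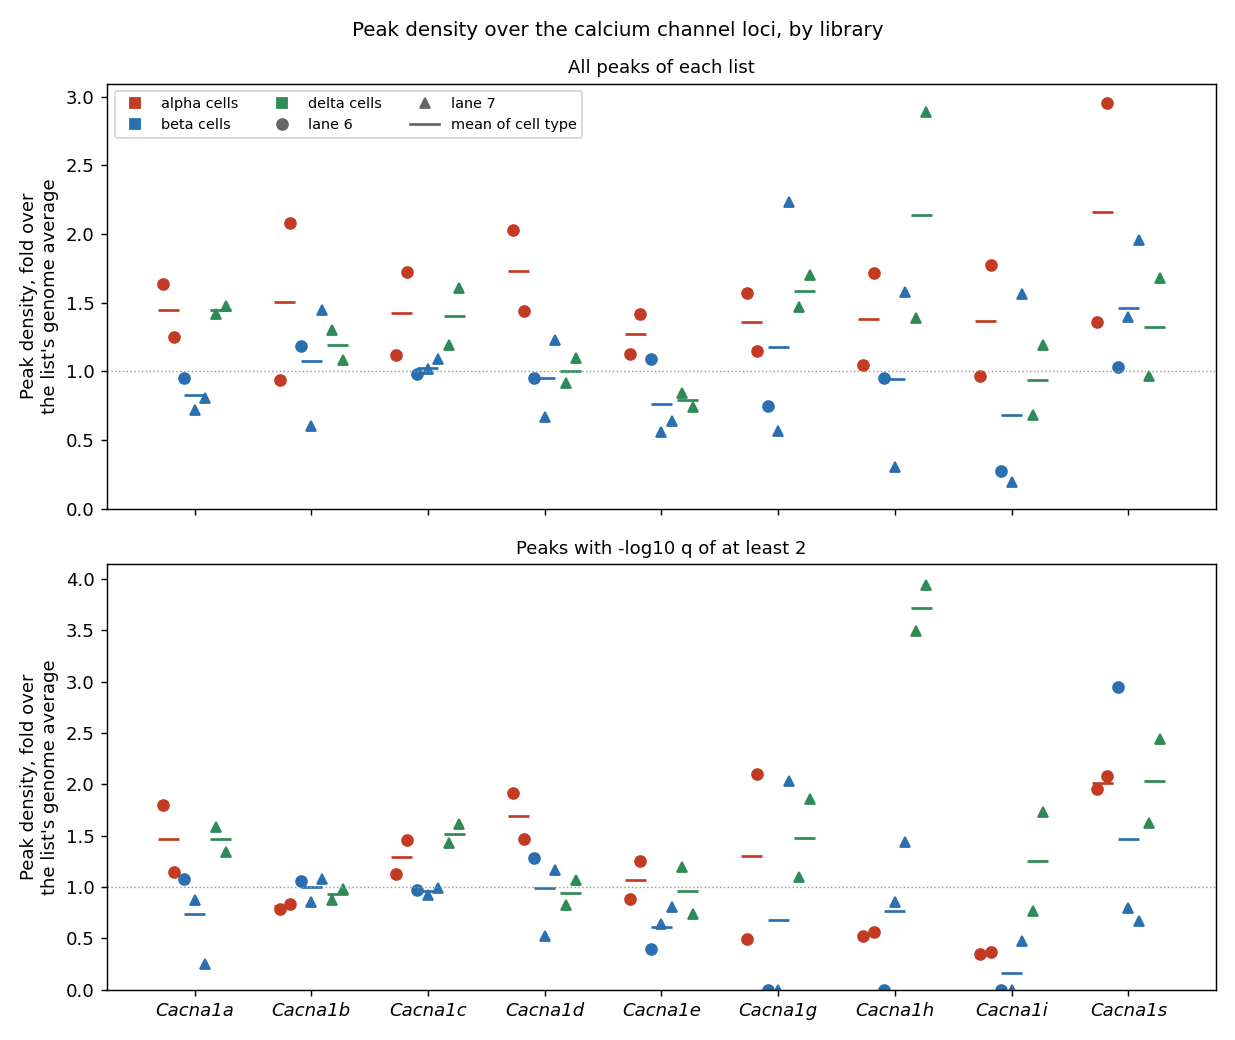
Peak density over each channel locus, as fold over the genome average of the same list (dotted line at 1), for all peaks (top) and for strong peaks (bottom), with 1 point per library, colour for cell type, shape for sequencing lane, and a short line at the mean of each cell type. The blue beta points of Cacna1a lie below the red and green points in both panels, and in the lower panel the green delta points of Cacna1h at 3.49 and 3.94 lie above all of its others.

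At Cacna1a, 23 and 15 peaks were called in alpha cells, 53, 7, and 9 in beta cells, and 24 and 12 in delta cells. The densities were 1.64 and 1.25 in alpha cells, 0.955, 0.718, and 0.809 in beta cells, and 1.42 and 1.48 in delta cells. The mean was 1.45 ± 0.273 (SD, n = 2) in alpha cells, 0.827 ± 0.1195 (SD, n = 3) in beta cells, and 1.45 ± 0.0419 (SD, n = 2) in delta cells, with p = 0.0381 in the exact permutation test and an adjusted p of 1. All 3 beta libraries were below all others, as in 5.21% of all genes. The order held within lanes, with 0.955 in beta 1 against an alpha mean of 1.45 in lane 6 and a beta mean of 0.763 against a delta mean of 1.45 in lane 7, as in 8.14% of all genes. The medians over all genes were 0.935 in beta 1 and 1.40 in alpha cells in lane 6, a gap much like that of Cacna1a. In lane 7 they were 1.31 in beta cells and 1.32 in delta cells. With an equal number of top peaks per list, the order of the Cacna1a libraries was lost, as beta 1 at 1.31 lay above alpha 2 at 1.12. Beta 2 and beta 3, at 0.934 and 0.187, stayed below all alpha and delta libraries. Over the alternative settings the exact p ran from 0.0167 to 0.362, and the lowest adjusted p was 0.634.

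Cacna1c followed the same order with a smaller gap. All peaks gave densities of 1.12 and 1.73 in alpha cells, 0.980, 1.01, and 1.09 in beta cells, and 1.20 and 1.61 in delta cells, with p = 0.200 in the exact permutation test. Strong peaks numbered 14 and 17 in alpha cells, 6, 7, and 9 in beta cells, and 16 each in delta cells, with densities of 1.13 and 1.46, 0.973, 0.917, and 0.993, and 1.43 and 1.61. The beta libraries were below all others in both sets, as in 5.21% and 6.81% of all genes, and the exact permutation p of the second set was 0.0476, with an adjusted p of 0.566. With an equal number of top peaks per list this order was lost, with an exact permutation p of 0.476. There, beta 1 at 1.43 lay above alpha 1 at 1.09 and delta 1 at 1.34, and beta 3 equalled alpha 1. Beta 2, at 1.01, stayed below all alpha and delta libraries.

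At Cacna1d the peak density was highest in alpha cells. The densities were 2.03 and 1.44 in alpha cells, 0.952, 0.670, and 1.23 in beta cells, and 0.912 and 1.10 in delta cells, from 48 and 29, 89, 11, and 23, and 26 and 15 peaks. The mean in alpha cells was 1.73 ± 0.419 (SD, n = 2), against 0.950 ± 0.279 (SD, n = 3) in beta cells and 1.00 ± 0.130 (SD, n = 2) in delta cells, with p = 0.0857 in the exact permutation test and an adjusted p of 1. Both alpha libraries were above all others, as in 6.98% of all genes. Strong peaks numbered 18 and 13 in alpha cells, 6, 3, and 8 in beta cells, and 7 and 8 in delta cells. Their densities were 1.92 and 1.47 in alpha cells, 1.28, 0.519, and 1.17 in beta cells, and 0.825 and 1.06 in delta cells. The alpha densities were above all others, as in 6% of all genes, and alpha cells had the highest mean in all 14 alternative settings. In lane 6, beta 1 had a density of 0.952 against the alpha mean of 1.73, where the medians over all genes were 0.935 and 1.40. With strong peaks alone the gap in lane 6 was smaller, with 1.28 in beta 1 against an alpha mean of 1.69. The medians over the genes tested were then 1.79 and 1.82.

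Part of the strong signal of lane 6 at this gene came from 2 narrow regions. A region of 241 bp in an intron, 51.7 kb from the 5' end (chr14:30439679-30439919), had a -log10 q of 37.4, 11.2, and 2.44 in alpha 1, alpha 2, and beta 1, and another of 241 bp, 11.1 kb upstream (chr14:30502432-30502672), had 38.5, 5.60, and 6.998. Neither had a peak in any library of lane 7. A region of 222 bp in an intron of Cacna1a (chr8:84506725-84506946) had the same pattern, with 20.6, 4.24, and 4.94. These regions were singled out after their values were seen. Of 133698 regions of at least 2 libraries, 402 (0.301%) had a strong peak in every library of lane 6 and no peak in lane 7, and 19 had the reverse. All 3 regions thus had strong peaks in beta 1 as well as in the alpha libraries, and the part of the lane was not tested.

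At Cacna1h the gap was seen among strong peaks. All peaks numbered 5 and 7 in alpha cells, 18, 1, and 6 in beta cells, and 8 each in delta cells, and the densities overlapped, at 1.04 and 1.71, 0.951, 0.301, and 1.58, and 1.39 and 2.89. Strong peaks numbered 1 each in alpha cells, 0, 1, and 2 in beta cells, and 6 each in delta cells. The densities were then 0.526 and 0.559 in alpha cells, 0, 0.855, and 1.44 in beta cells, and 3.49 and 3.94 in delta cells. Both delta libraries were above all others, as in 6.42% of all genes, with p = 0.0667 in the exact permutation test and an adjusted p of 0.566. Within lane 7, the delta mean was 3.72 and the beta mean 1.15, and a delta density above both beta libraries of that lane was found for 18.9% of all genes.

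**Figure D3:**
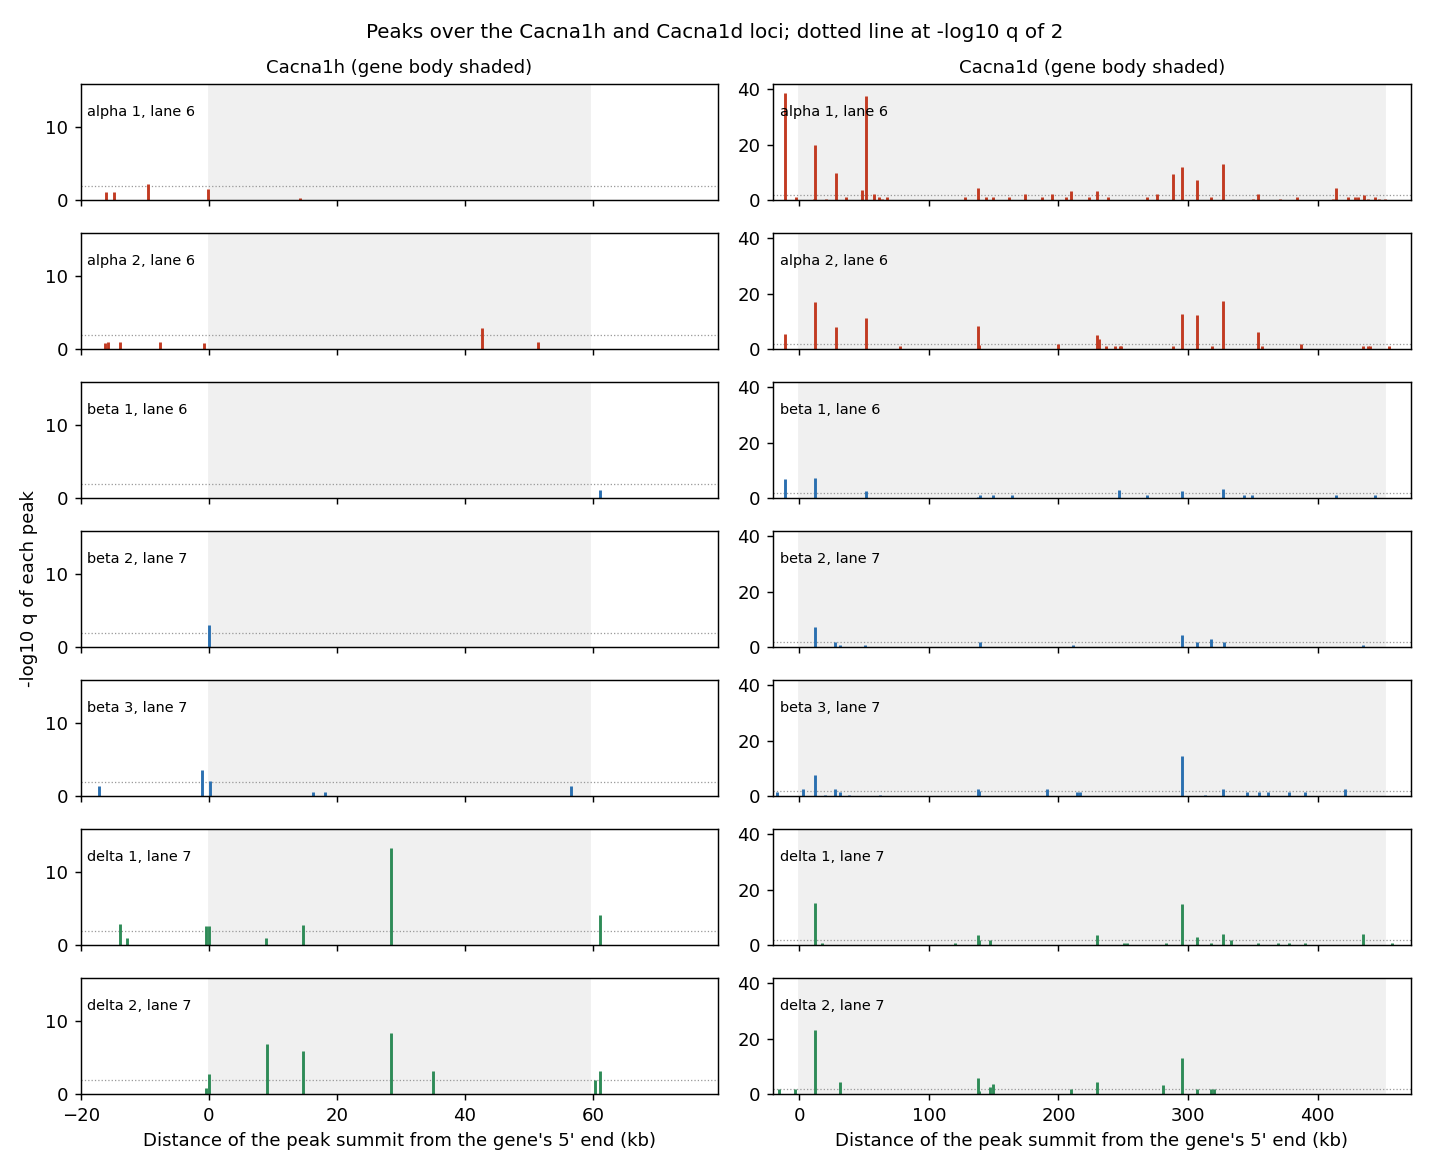
Peaks of each library (rows, coloured by cell type) over the Cacna1h (left) and Cacna1d (right) loci, with the distance of the summit from the 5' end in kb on the horizontal axis, -log10 q on the vertical axis, and the gene body shaded. The 2 delta libraries share Cacna1h peaks near 14.7 kb and 28.5 kb where the other 5 libraries have none above 2, and the tall Cacna1d peaks of alpha 1 at 51.7 kb and upstream of the gene recur in alpha 2 and beta 1 but not in lane 7.

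The other T-type genes and the R-type gene gave the following. At Cacna1i, 1 strong peak each was found in alpha cells, 0, 0, and 1 in beta cells, and 2 and 4 in delta cells, with delta densities of 0.767 and 1.73 above all others, as in 6.42% of all genes, an exact permutation p of 0.0381, and an adjusted p of 0.554. With all peaks, the Cacna1i densities overlapped and the highest mean, 1.37, was in alpha cells. At Cacna1g the densities of beta cells alone ran from 0.566 to 2.23 and spanned those of all other libraries, with an exact permutation p of 0.781. At Cacna1e the alpha densities of 1.13 and 1.41 were above 1.09, 0.561, and 0.639 in beta cells and 0.840 and 0.740 in delta cells, as in 6.98% of all genes, with an exact permutation p of 0.171 and a small gap to beta 1. This order was lost among strong peaks, where delta 1 reached 1.19 against 0.883 in alpha 1. At Cacna1s the cell types overlapped in both sets, with an exact permutation p of 0.505 for all peaks. At Cacna1b they overlapped for all peaks, with an exact permutation p of 0.733. With strong peaks alone, the Cacna1b densities of 0.788 and 0.837 in alpha cells were below 1.06, 0.854, and 1.08 in beta cells and 0.872 and 0.984 in delta cells, as in 9.82% of all genes, from 2 or 3 peaks in each library and with an exact permutation p of 0.238 and an adjusted p of 0.703 over all genes tested.

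Merged over libraries, the windows held 844 regions, and 159 of them had peaks from 2 or more libraries. Of these, 108 lay in introns, 22 at transcript starts, 11 in other exons, 11 upstream, and 7 downstream, and 16 (10.1%) were called in all 7 libraries, against 13.3% of such regions across the genome. Cacna1c had 44 of the 159, Cacna1d 28, Cacna1e 27, Cacna1a 19, Cacna1b 13, Cacna1h 9, Cacna1s 8, Cacna1g 6, and Cacna1i 5. The regions at starts had a median of 59.0% G and C in the 300 bases around the summit, against 48.7% for those in introns and 47.0% for all regions of the genome.

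A region was called selective where at least 2 replicates of 1 cell type had a peak and no library of the other cell types did. By this rule 9 regions were selective for alpha cells, 12 for beta cells, and 4 for delta cells, that is, 5.66%, 7.55%, and 2.52% of the 159, against 2.42%, 10.7%, and 2.06% across the genome. None of the 12 beta regions reached a -log10 q of 2 in any library, 1 remained by the same rule without beta 1 and 3 without beta 3, and 0 were called in all 3 beta libraries. With strong peaks alone, 63 regions of the channel loci were called in 2 or more libraries, and 4 of them (6.35%) were selective for alpha cells, 0 for beta cells, which allows a share of up to 4.76%, and 7 (11.1%) for delta cells. The genome-wide shares were 5.38%, 2.60%, and 4.68% of 51202 such regions, and the differences were not tested.

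Of the selective regions, 3 reached a -log10 q of 2 in both replicates. The strongest lay in intron 2 of 34 of Cacna1h, 28.5 kb from the 5' end (chr17:25405101-25405511), with 13.4 and 8.46 in delta 1 and 2 and no peak of any strength in the other 5 libraries. A second one lay in the same intron 14.7 kb from the 5' end (chr17:25418800-25419422), with 2.77 and 5.93 in the delta libraries and no peak elsewhere. The absence in beta 2 and beta 3 was found within the same lane. The third, in intron 9 of 48 of Cacna1c (chr6:118731953-118732316), had 2.16 and 2.03 in the alpha libraries and lay close to the threshold. All 3 sequences are shown above.

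Regions that passed only when weak calls were left out added to the delta side, and they were named after their values were seen. At Cacna1c, a region 574 kb from the 5' end (chr6:118621898-118622266) had a -log10 q of 12.2 and 12.7 in the delta libraries, 1.82 in beta 2, and no other peak. At Cacna1a, a region 37.9 kb from the 5' end (chr8:84426109-84426574) had 5.37 and 6.34 in the delta libraries and 1.13 in alpha 1. A region just beyond the 3' end of Cacna1h, 61.1 kb from the 5' end (chr17:25372516-25372834), had 4.14 and 3.14 in the delta libraries and 1.10 in beta 1. Of the 7 delta regions, 3 lay at Cacna1h, 2 at Cacna1c, and 1 each at Cacna1a and Cacna1i. The alpha regions of this kind lay at Cacna1c, Cacna1d, and Cacna1s, and all alpha peaks were of lane 6 and all delta peaks of lane 7.

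At the other end, 9 regions reached a -log10 q of 2 in all 7 libraries. Of these, 3 lay at starts of neighbouring genes, namely Kif21b downstream of Cacna1s, Dcp1b inside the window of Cacna1c, and Dcp1a inside that of Cacna1d. The starts of Cacna1b and Cacna1c described above were 2 more. In Cacna1e, a region in intron 7 of 46, 384 kb from the 5' end (chr1:154500457-154500928), had 20.04 and 39.8 in alpha cells, 4.62, 3.04, and 3.84 in beta cells, and 21.1 and 4.05 in delta cells. The alpha libraries and delta 1 were higher than the beta libraries and delta 2. A second Cacna1e region (chr1:154814546-154814769) was 224 bp wide and had 27.4 and 25.3 in alpha cells, 32.8, 28.6, and 26.9 in beta cells, and 27.7 and 28.1 in delta cells. The cell types overlapped, and in beta 1, where few peaks were strong, it was the strongest of all channel peaks. None of its 9 stretches of 30 bases that were looked up occurred elsewhere in the assembly. In Cacna1d, a region over an exon 295 kb from the 5' end (chr14:30196231-30196780) had 12.1 and 12.7 in alpha cells, 2.44, 4.40, and 14.3 in beta cells, and 14.9 and 13.0 in delta cells. In Cacna1c, a region in intron 3 of 48 (chr6:118921391-118921981) had 7.47 and 10.2 in alpha cells, 5.52, 6.22, and 7.57 in beta cells, and 6.65 and 4.03 in delta cells, and the cell types overlapped.

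The 24 associated genes, which encode further subunits, among them the pore subunit gene Cacna1f, and regulators of these channels, were open at the 5' end in alpha cells for 16, in beta cells for 14, and in delta cells for 10. The shares of all protein-coding genes were 56.8%, 56.1%, and 54.1%, and the differences were not tested. The beta count was 9 without beta 1. All 7 libraries had a peak at 8 of them, among them Cacna2d1, Cacnb4, Gem, Rem2, Rrad, Calm2, and Calm3, and no library had one at Cacna1f, Cacng1, Cacng8, and Rem1. Thus 8 of 24 associated genes and 2 of 9 pore genes were open in every library, against 41.5% of all genes. Cacna2d1 encodes an alpha2delta subunit that brings channels to the membrane, and its start reached a -log10 q of 2 in all 7 libraries, as did those of Calm2 and Calm3, which encode calmodulin, and of Rem2, a small GTPase that restrains channel activity. Of the beta subunit genes, Cacnb2 had a peak in all libraries but delta 2 and Cacnb4 in all 7, whereas Cacnb3 had a weak peak in alpha 1 and beta 1 alone. Of the 8 gamma subunit genes, from Cacng1 to Cacng8, none had a peak in all libraries.

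**Figure D4:**
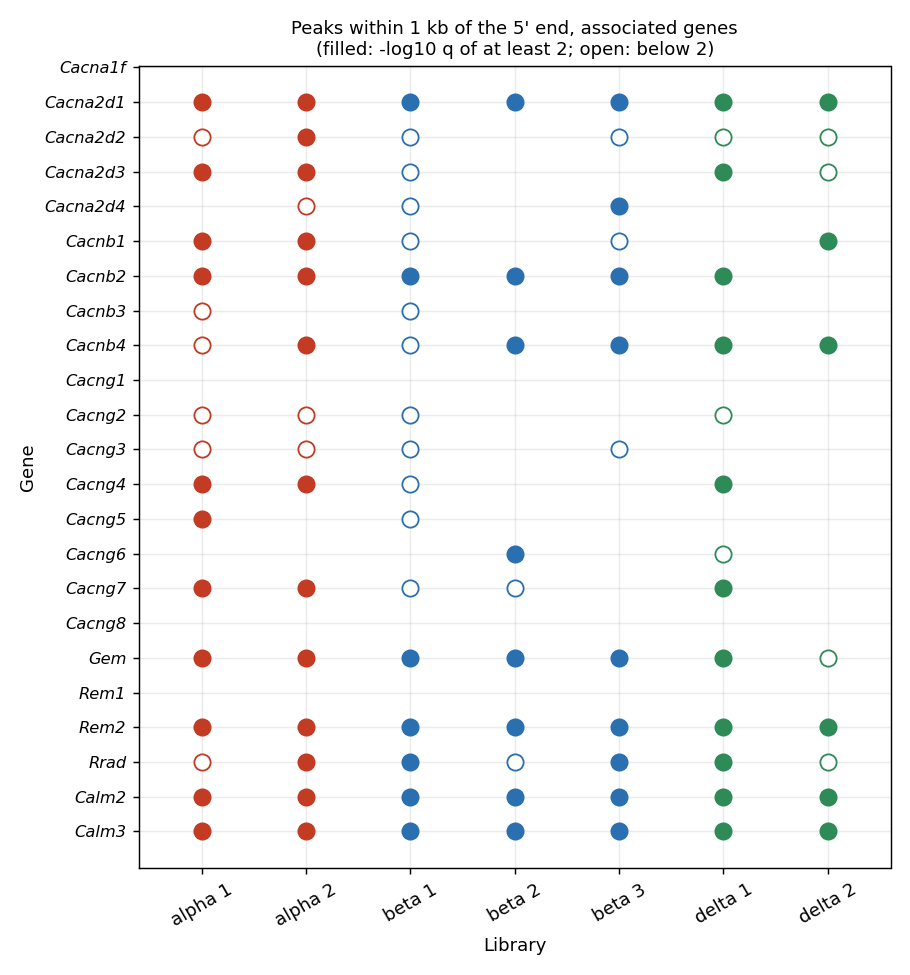
Peaks at the 5' ends of associated genes (rows, within 1 kb) in each library (columns), with filled circles for strong peaks, open circles for weak peaks, and colour for cell type. Cacna2d1, Rem2, Calm2, and Calm3 are filled in all 7 libraries, and most open circles of the beta columns are in beta 1.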

How the data were processed

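ATAC-Seq peak lists of 2 alpha, 3 beta, and 2 delta libraries of sorted mouse islet cells were used, with groups from the labels. Per the study's methods and the submitters' processing notes, the authors used FastQC, Trimmomatic, Bowtie2 (GRCm38, mm10, without mitochondrial DNA), and Picard, left out blacklist regions, and ran MACS2 on each library by itself. Versions and the MACS2 threshold are not given in the sources used here, and the lowest -log10 p in each list was 2.01. The deposited values are the -log10 p-value and -log10 q-value of each peak, the fold enrichment at the summit over local background (a ratio), and a score that the authors' caller derived from the -log10 p. Reads outside peaks are not in the lists, so no limit of detection could be computed for an absent peak, and the count-based test of the study was not run.

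Intervals repeated for several summits were counted once. Peaks of all libraries were merged where they overlapped (minimum 1 bp), and genes came from GENCODE vM21. A TSS peak lies within 1 kb of a 5' end, and a cell type is open with peaks in at least 2 replicates. Density was compared by an exact permutation test over 210 assignments with Benjamini-Hochberg adjustment over all genes tested, which was checked on simulated data. Regions were named where they lie at a transcript start, reach a -log10 q of 2 in all 7 libraries, or are selective and reach it in at least 2 replicates. Genes of like pattern were the 2 with peaks in the same libraries and the smallest mean difference in percentile. Some genes that these rules and lists name are not reported here. Of the named regions, sequences from GRCm38 were shown for those at starts of the channel genes or in their introns that carry the patterns described, of up to 300 bases and without untranslated bases. The members, gene lists, and tests were chosen with earlier results of these data known. As alternatives, strong peaks alone (-log10 q of 2 or more), the top 50000 peaks of a list, other windows and starts, covered bases, other rules for selective regions, permutation blocks, and leaving out each library were tried. Python 3.11.15 with numpy 2.4.6, pandas 2.3.3, and matplotlib 3.10.9 and samtools 1.23.1 were used.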

Additional observations from a re-analysis of the deposited data

How the results depend on the processing

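Of 261 values under alternative settings, 229 stayed within the limits set for the same call and 32 moved. Density values counted as the same while none passed an adjusted p of 0.05, even where the exact permutation p or the highest cell type changed. At Cacna1i the exact permutation p went from 0.524 to 0.0381 with strong peaks alone. Counts of genes open in 1 cell type could not change when a library of another was left out. The tally therefore does not measure how stable the densities are. At a -log10 q of at least 2, the channel genes open at the 5' end fell to 1 in alpha cells, 2 in beta cells, and 1 in all libraries, and with 50000 peaks per list to 1 in alpha cells and 1 in all libraries. With any transcript start, the counts rose to 8 for each cell type and 8 for all libraries. The associated genes open at the 5' end were 9 in beta cells, 6 in delta cells, and 4 in all libraries at a -log10 q of at least 2, and 9, 6, and 5 with 50000 peaks per list. With 1 library left out, those of beta cells ranged from 9 to 14. Selective regions for alpha, beta, and delta cells numbered 4, 0, and 7 with strong peaks alone, and 3 in alpha and 0 in beta cells with 50000 peaks per list. They numbered 0 in beta cells where every replicate was required and 8 in delta cells where peaks had to cover at least 0.5 of the region. With 1 library left out, they ranged from 9 to 88 in alpha cells, from 1 to 15 in beta cells, and from 4 to 82 in delta cells, where 88 and 82 are counts with a single library left for that cell type. The number of genes past an adjusted p of 0.05 was 0 in every setting. With the replicate block, the 36 assignments gave 0 such genes and a smallest p of 0.0556. Same-numbered libraries correlated between -0.0519 and 0.402. The correlations of the 2 alpha libraries, and of the 2 delta libraries, mirror each other in sign. They therefore cannot settle whether the replicate numbers pair the libraries. Alpha and delta cells came from different crosses, so their libraries do not share animals. The study lists alpha 1 and delta 1 as female and beta 1 as male, and alpha 2 and delta 2 as male and beta 2 as female. If its sample numbers match the labels, the same number does not mark a shared pool of animals. A block by sequencing lane, chosen after seeing the data, gave 18 assignments, 0 genes, and a smallest p of 0.0556. Without 1 beta library the smallest p is 0.0667. With either block, or without 1 beta library, no gene could pass an adjusted p of 0.05. An absent peak in a shallow library could not be told from closed chromatin.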

Other observations

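Genes whose 5' ends lie in the channel windows differed in accessibility. Dcp1a and Dcp1b, which encode decapping cofactors of mRNA decay, and Kif21b, a kinesin, had a peak at the 5' end with a -log10 q of at least 2 in all 7 libraries. Ascl5 had a peak in 6 libraries, of which 4 reached that level, and none in beta 3. The region at its start also held the Cacna1s peaks of alpha 1, alpha 2, beta 1, and beta 2 described above. Spata20 had a weak peak in beta 1 and beta 3, the mast cell protease gene Tpsb2 in beta 1 alone, and Abcc3 and Tpsg1 had none in any library.

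Regions called in both alpha libraries and both delta libraries and in no beta library numbered 5 of 159 (3.15%) at the channel loci, with 2 each at Cacna1c and Cacna1e and 1 at Cacna1d, and 1906 of 133698 (1.43%) across the genome. The difference was not tested.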
